A study of Mus musculus with 30 samples.

Results

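Cultures of wild-type mouse osteoclast precursors, harvested after 2 days of differentiation, were compared between mice 20 months and 6 months old. The comparison rests on 6 RNA-seq libraries of the 30 in the series, chosen by their titles: 3 from 20-month mice (libraries 1, 2 and 3) and 3 from 6-month mice (libraries 1, 2 and 4). All were of the strain C57BL/6J and wild type, and all were cultures of bone marrow-derived macrophages treated with macrophage colony-stimulating factor (M-CSF, 25 ng/ml) and RANKL (100 ng/ml) in α-MEM with 10% fetal bovine serum. At 2 days such cultures are known to hold mainly mononuclear pre-osteoclasts. A second set of 3 libraries at each age came from wild-type cultures kept with the same cytokines until big multinucleated cells were present. It serves only to show where the age difference at 2 days departed from that in mature cultures. All 10 groups of 3 libraries in the series entered the fit and shared its estimate of the spread between replicates. The study asks whether osteoclasts of mice of different ages, wild type or lacking the telomerase RNA gene Terc, differ in gene expression. The labels do not say how many mice stand behind a library, so p-values measure the spread between libraries, which may be partly technical.

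Osteoclasts are bone-resorbing giant cells that form by fusion of cells of the macrophage lineage. M-CSF keeps the precursors alive and dividing through its receptor Csf1r, while RANKL acts through the receptor RANK, encoded by Tnfrsf11a, the adaptor Traf6 and the transcription factors c-Fos and Nfatc1 to switch on the genes for fusion, acid secretion and collagen digestion. Interferon signalling is known as a brake on this program, and senescent cells are known for secreting inflammatory factors. These are bulk RNA libraries, in which fewer cells of a type and less RNA per cell cannot be told apart.

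The 6 libraries held 13182063 to 18441875 counts assigned to genes, within the 4269798 to 25147975 of the whole series. Mitochondrial transcripts made up 2.68% to 2.76% of counts in 20-month and 2.50% to 2.71% in 6-month libraries, and ribosomal protein transcripts 3.91% to 4.32% in 20-month and 4.27% to 4.51% in 6-month libraries. The 3-against-3 exact permutation test, two-sided, gave p = 0.2 for both shares, where the smallest it allows is 0.1. That smallest value was reached by 2 other features, in which the ages did not overlap. The 50 top genes held 13.7% to 13.8% of counts in 20-month and 14.2% to 14.7% in 6-month libraries. The factors of the scaling used below were 1.1 to 1.11 in 20-month and 1.06 to 1.08 in 6-month libraries. Replicate 1 of the 6-month group stood somewhat apart. Its counts differed from those of its 2 partners by a chi-square per degree of freedom of 5.53 and 5.66, against 2.40 between the partners and 2.43 to 3.87 among the 20-month libraries. No pair was close enough to be 1 library deposited a second time. Marker genes of osteoclasts and of macrophages were both present, as the labels imply, over a wide range of levels. Per length of transcript, the macrophage lysozyme gene Lyz2 had rank 2 among all genes in every library. The osteoclast protease gene Ctsk ranked 18 to 42. Other markers ranked far lower, with Itgb3 at 5275 to 6689, Mertk at 6881 to 7553 and Calcr at 11325 to 13863. Calcr, the calcitonin receptor of mature osteoclasts, stood at 3.26 to 3.68 TPM, transcripts of a total of 1000000, in 20-month and 1.08 to 1.62 TPM in 6-month libraries. All 6 libraries carried Y-linked transcripts (Ddx3y, 1376 to 1616 counts) and at most 5 counts of Xist.

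Age was associated with changes of moderate size in many genes at 2 days. Of 15310 genes tested with edgeR's quasi-likelihood test, 1149 (7.50%) were higher and 1733 (11.3%) lower in 20-month than in 6-month cultures at a Benjamini-Hochberg adjusted p under 0.05. Changes of at least 2-fold were found in 79 genes (0.516%) that rose and 314 (2.05%) that fell. The median log2 fold change of all tested genes was -0.02. Separation of the ages was common: all 20-month libraries lay above all 6-month libraries in 2510 genes (16.4%). They lay below in 3277 (21.4%). Interferon-stimulated genes and several osteoclast genes stood among those that rose, while contractile, matrix, growth factor and antioxidant genes stood among those that fell. The shares of all tested genes, 7.50% higher and 11.3% lower, are the measure for the counts of each list below. Levels below are CPM, counts out of 1000000 in a library scaled by the trimmed mean of M-values (TMM), and the 3 values of an age are given in the order of its libraries. Fold changes are 20-month over 6-month on the log2 scale, with their standard error after ±, and coordinates are those of the mouse genome GRCm38.

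**Figure D1:**
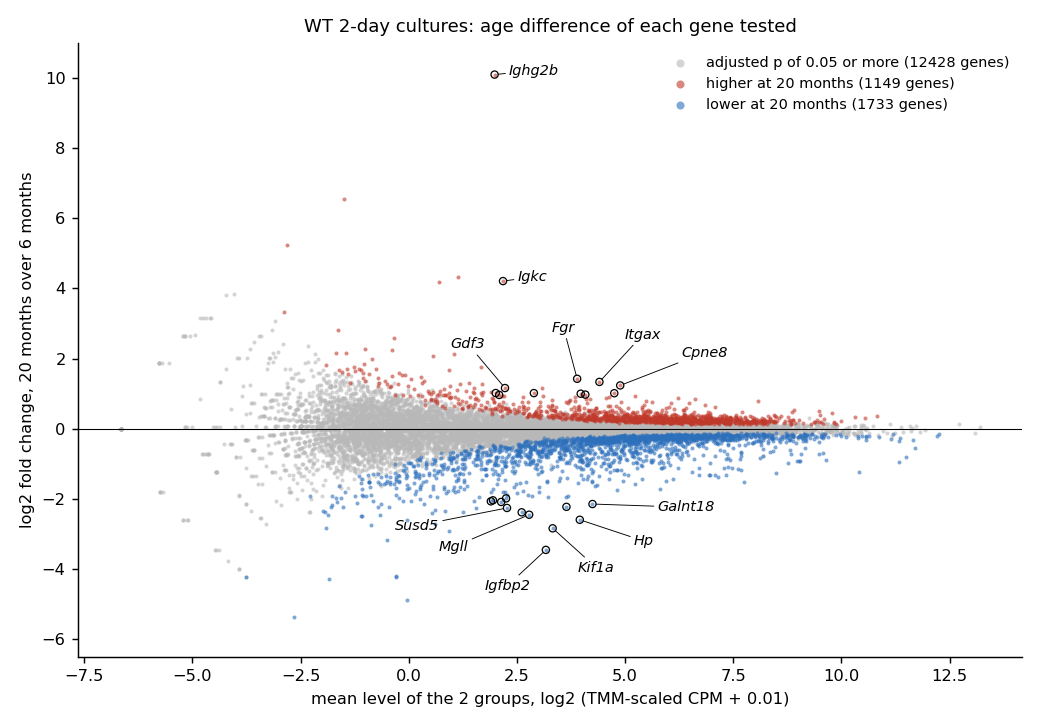
Log2 fold change, 20-month over 6-month 2-day cultures, against mean level (log2 CPM) for the 15310 genes tested. Grey points did not pass an adjusted p of 0.05, coloured points did, and the 24 named genes with the largest changes are ringed, 12 of them with their symbols. More genes fell than rose by at least 2-fold, 314 against 79.

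The immunoglobulin genes Ighg2b and Igkc, described below, rose most. Among the other genes above 5 CPM with the largest rises, several encode receptors, kinases or adhesion proteins of myeloid cells. Fgr (chr4:132974095-133001910, plus strand), a Src-family tyrosine kinase of myeloid cells, stood at 23.3, 20.7 and 20.8 CPM in 20-month cultures and 8.80, 7.38 and 7.97 CPM in 6-month cultures. Every 20-month library lay more than 10 CPM above every 6-month library, a 2.68-fold difference (log2 fold change 1.42 ± 0.08, adjusted p = 1.3e-14). Itgax (chr7:128129547-128150657), which encodes the integrin chain CD11c of dendritic cells and macrophages, was at 32.1, 29.6 and 29.5 CPM in 20-month and 11.1, 11.1 and 13.8 CPM in 6-month cultures (log2 fold change 1.33 ± 0.12, adjusted p = 2.9e-10). Clec7a (chr6:129461591-129472779), the fungal β-glucan receptor Dectin-1, had 35.7, 39.1 and 33.2 CPM in 20-month and 17.03, 18.5 and 17.96 CPM in 6-month cultures (log2 fold change 1.01 ± 0.11, adjusted p = 2e-08). In none of these genes did the ages overlap, as the rule that named them required. The copine gene Cpne8, whose product binds membranes in the presence of calcium, was at 42.1, 41.4 and 41.03 CPM in 20-month and 17.1, 18.01 and 17.9 CPM in 6-month cultures (log2 fold change 1.23 ± 0.09, adjusted p = 9.9e-13). The other genes named by size of change were Gdf3, a ligand of the TGF-β superfamily (1.16), Sema3d, a secreted semaphorin (1.02), Slfn4, a schlafen gene of myeloid cells (1.01), Parvg, the parvin of blood cell adhesions (1.00), Slc6a12, a betaine and GABA transporter (0.97), and Napsa, an aspartic protease (0.96). Of 12 dendritic cell markers tested, 1 was higher and 3 lower, and the summed level of all 18 was 167 to 190.4 CPM in 20-month and 183 to 197 CPM in 6-month cultures.

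The genes that fell most include secreted factors, enzymes and a motor protein. Igfbp2 (chr1:72824503-72852474), which binds insulin-like growth factors, had 2.33, 1.89 and 0.455 CPM in 20-month and 14.1, 18.6 and 16.6 CPM in 6-month cultures, a level 11-fold lower (log2 fold change -3.45 ± 0.26, adjusted p = 6.7e-12). Kif1a (chr1:93015464-93101951), a kinesin that carries vesicles along microtubules, had 2.19, 2.22 and 2.88 CPM in 20-month and 14.5, 19.9 and 18.4 CPM in 6-month cultures (log2 fold change -2.84 ± 0.15, adjusted p = 4.6e-15). Haptoglobin, from Hp (chr8:109575128-109579172), the scavenger of free haemoglobin, had 2.81, 5.22 and 4.91 CPM in 20-month and 36.5, 21.8 and 21.6 CPM in 6-month cultures (log2 fold change -2.60 ± 0.26, adjusted p = 2.7e-09). All 3 genes were separated completely between the ages, as the same rule required, with 6-month library 1 the highest for Hp. Slit3 (chr11:35121224-35708507), a guidance ligand that osteoclasts secrete and that acts on bone-forming cells through Robo receptors, was at 3.83, 3.999 and 5.26 CPM in 20-month and 19.9, 20.1 and 21.9 CPM in 6-month cultures (log2 fold change -2.23 ± 0.22, adjusted p = 1.7e-09). Further genes of this group were Mgll (-2.45), which splits monoacylglycerols, Sod3 (-2.38), the extracellular superoxide dismutase, Susd5 (-2.26), Galnt18 (-2.15), of the enzyme family that starts O-glycans, Adamtsl3 (-2.09), a matrix glycoprotein gene, Shroom3 (-2.07) and Cobl (-1.99), which organise actin, and Pcsk6 (-2.04), a proprotein convertase. All 24 genes of these 2 groups kept their calls when any 1 of the 6 libraries was left out.

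Genes of bone resorption were higher in part. Of 20 genes of resorption and acid secretion, 8 were higher and 0 lower (edgeR; 1 at an unadjusted p under 0.05 and 0 by DESeq2), against 7.50% and 11.3% of all tested genes, with a median log2 fold change of 0.10. The summed level of the 20 genes was 7363, 7400 and 7266 CPM in 20-month and 6812, 6227 and 6529 CPM in 6-month cultures, so the ages did not overlap. Car2 (chr3:14886273-14900770), a carbonic anhydrase and source of the protons that osteoclasts secrete, had 30.6, 33.8 and 32.5 CPM in 20-month and 20.1, 15.4 and 16.7 CPM in 6-month cultures (log2 fold change 0.90 ± 0.09, adjusted p = 2.9e-09). Calcr (chr6:3685680-3764714) had 3.90, 3.56 and 3.85 CPM in 20-month and 1.24, 1.43 and 1.83 CPM in 6-month cultures, 2.48-fold higher (log2 fold change 1.31 ± 0.19, adjusted p = 2.8e-06), though still a low level at this stage. Ctsk, which encodes cathepsin K, the collagen-digesting protease, had 1454, 1447 and 1404 CPM in 20-month and 1241, 1020 and 1133 CPM in 6-month cultures (log2 fold change 0.34 ± 0.08, adjusted p = 0.0016). The 20-month values of these 3 genes exceeded every 6-month value, and 6-month library 1 was the nearest for Car2 and Ctsk. Smaller rises were seen in Mmp9 (0.30 ± 0.06), a gelatinase, Atp6v0d2 (0.31 ± 0.06), the osteoclast form of the proton pump's d subunit, and Snx10 (0.34 ± 0.06), a sorting nexin needed for resorption. Other resorption genes did not pass. Acp5, the marker enzyme TRAP, had 712, 744 and 702 CPM in 20-month and 721, 632 and 657 CPM in 6-month cultures (log2 fold change 0.10 ± 0.08, adjusted p = 0.41). The chloride transporter gene Clcn7 (0.00, adjusted p = 0.97) and the pump subunit gene Tcirg1 (-0.11, adjusted p = 0.17) did not pass. Of 18 subunit genes of the proton pump, 4 were higher and 0 lower (edgeR; 1 at an unadjusted p under 0.05 and 0 by DESeq2), with Atp6v1a (0.19 ± 0.05) and Atp6ap2 (0.20 ± 0.05) beside Atp6v0d2.

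**Figure D2:**
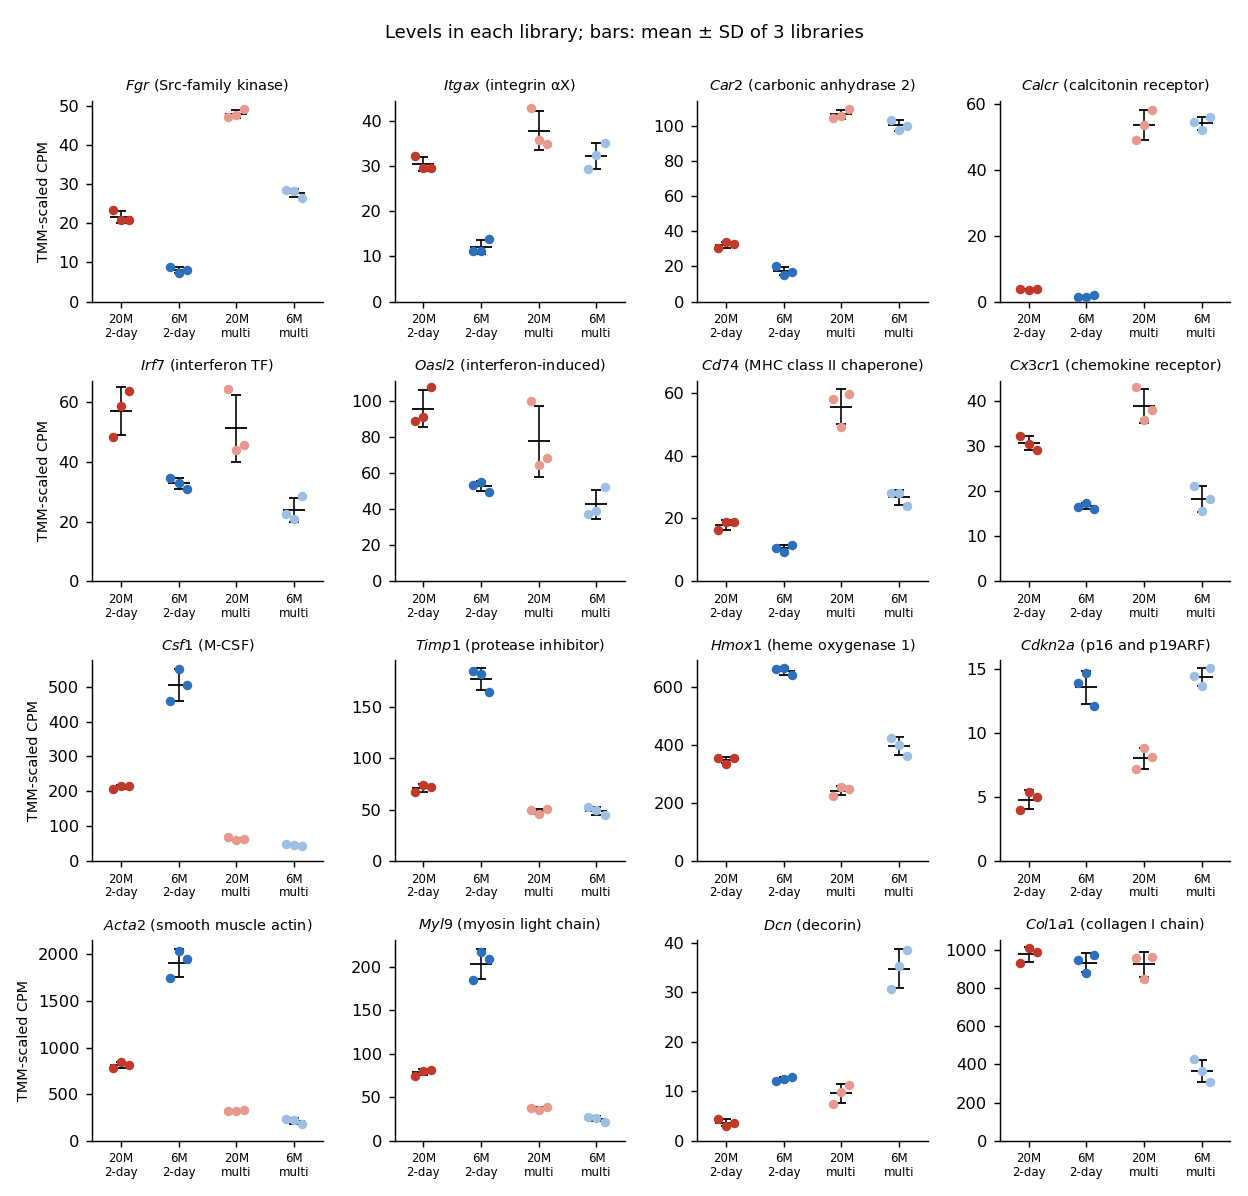
Level (TMM-scaled CPM, linear axes from 0) of 16 genes in each library, with the 20-month 2-day, 6-month 2-day, 20-month multinucleated and 6-month multinucleated groups from left to right and bars for the mean ± SD of 3 libraries. Fgr, Itgax, Car2 and Calcr sit higher in 20-month 2-day cultures, Acta2, Myl9, Csf1 and Hmox1 lower, and Col1a1 overlaps between the ages at 2 days.

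Lists of osteoclast signalling, fusion, repression and action on osteoblasts had between 2 and 5 members called each. Among 28 genes of RANK signalling and osteoclast transcription factors, 1 was higher and 1 lower, against 7.50% and 11.3% of all tested genes. The count of higher members was 3 by DESeq2 or without 20-month library 1, 5 with the 6 libraries alone and 7 with the 12 wild-type libraries of both stages. Traf6, the adaptor of RANK, rose (log2 fold change 0.28 ± 0.07, adjusted p = 0.0064). The receptor gene Tnfrsf11a (0.13, adjusted p = 0.15), Nfatc1 (0.20, adjusted p = 0.053) and Fos (-0.09, adjusted p = 0.31) did not pass. Neither did Prdm1 (0.12, adjusted p = 0.32), which encodes the repressor Blimp1. Among 21 genes of M-CSF and RANK receptors and their adaptors, 4 (19%) were higher and 1 lower, and 8 were higher with the 6 libraries alone and 9 with the 12. Itgb3, the vitronectin receptor chain, stood at 0.29 ± 0.07 and Csf1r at 0.06 ± 0.04 (adjusted p = 0.35). Among 16 genes of fusion, 2 (12.5%) were higher and 2 (12.5%) lower, near the 7.50% and 11.3% of all tested genes. The receptor gene Sirpa (0.28 ± 0.04) and its ligand Cd47 (0.30 ± 0.05) rose, and Cd81 (-0.35 ± 0.06), a tetraspanin, and Adam8 (-0.21 ± 0.05), a surface protease, fell. The fusion genes Dcstamp (0.12, adjusted p = 0.21) and Ocstamp (-0.01, adjusted p = 0.94) did not pass. The call of Adam8 was lost without 6-month library 2 (log2 fold change -0.14, adjusted p = 0.081). Among 16 repressors of osteoclast formation, 3 were higher and 1 lower. The deubiquitinase gene Cyld (0.39 ± 0.07, adjusted p = 1e-04) and the inhibitory receptor gene Lilrb4a (0.31 ± 0.07, adjusted p = 0.0028) rose. The transcription factor genes Irf8 (-0.07 ± 0.07) and Bcl6 (-0.07 ± 0.08) did not pass. Of 15 factors through which osteoclasts are known to act on osteoblasts, 0 were higher (edgeR; 3 at an unadjusted p under 0.05 and 2 by DESeq2) and 5 lower. Besides Slit3, the cytokine gene Lif had 14.99, 13.3 and 14.01 CPM in 20-month and 28.7, 31.6 and 27.8 CPM in 6-month cultures (log2 fold change -1.06 ± 0.10, adjusted p = 2.6e-09). The sphingosine kinase gene Sphk1 (-0.80 ± 0.18), the growth factor gene Pdgfa (-0.34 ± 0.08) and the catenin gene Ctnnd1 (-0.27 ± 0.06) also fell.

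Macrophage genes moved in both directions. Of 25 macrophage and monocyte markers, 6 (24%) were higher and 5 (20%) lower, against 7.50% and 11.3% of all tested genes. The count of lower members was 3 without 20-month library 1, 20-month library 2, 20-month library 3, 6-month library 1 or 6-month library 2. Cx3cr1 (chr9:119901616-120069879), the fractalkine receptor of patrolling monocytes and osteoclast precursors, had 32.2, 30.3 and 29.1 CPM in 20-month and 16.5, 17.3 and 16.03 CPM in 6-month cultures (log2 fold change 0.88 ± 0.10, adjusted p = 7.4e-08). Mpeg1, a pore-forming protein of macrophages, had 1057, 951 and 1037 CPM in 20-month and 749.7, 726 and 748 CPM in 6-month cultures (log2 fold change 0.45 ± 0.05, adjusted p = 1.8e-08). Marco (chr1:120474538-120505024), a scavenger receptor, went the other way, with 16.4, 14.4 and 17.7 CPM in 20-month and 39.1, 25.8 and 33.2 CPM in 6-month cultures (log2 fold change -1.02 ± 0.14, adjusted p = 1.4e-06). The ages did not overlap for any of the 3. Adgre1, which encodes the macrophage antigen F4/80, had a log2 fold change of -0.07 ± 0.05 (adjusted p = 0.38). Among 18 genes of complement C1q and tissue macrophages, 1 was higher and 5 lower. The count of higher members was 0 without 20-month library 3, 6-month library 2 or 6-month library 4 and 5 without 6-month library 1. Gas6, the ligand that bridges apoptotic cells to the receptors Axl and Mertk, had 71.5, 68.99 and 65.1 CPM in 20-month and 135, 115 and 123 CPM in 6-month cultures (log2 fold change -0.86 ± 0.08, adjusted p = 1.9e-10). Axl itself fell by less (log2 fold change -0.30 ± 0.07, adjusted p = 0.0025). Cd5l, a scavenger protein (-0.64), and Pf4, a chemokine of platelets and macrophages (-1.48), were also lower in every 20-month library. The C1q chain genes C1qa (0.31), C1qb (0.20) and C1qc (0.14) did not pass. Of 6 erythroid and platelet genes tested, 1 was higher and 3 lower. Ppbp, a platelet chemokine, had 0.0724 ± 0.0854 CPM in 20-month and 1.53 ± 1.11 CPM in 6-month cultures (SD, n = 3 each). The summed level of the 18 listed was 794 to 829.6 CPM in 20-month and 722 to 818 CPM in 6-month cultures, most of it the transferrin receptor gene Tfrc of dividing cells. The part of platelet RNA in the Pf4 result was not tested.

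Transcripts of MHC class II presentation, by which antigen-presenting cells show peptides to helper T cells, were scarce but higher with age. Of 13 genes, 5 were higher and 0 lower (edgeR; 1 at an unadjusted p under 0.05 and 0 by DESeq2), with a median log2 fold change of 0.50; the count of higher members was 3 without 20-month library 3 or 6-month library 4. These counts stand against 7.50% higher and 11.3% lower among all tested genes. Cd74 (the invariant chain) had 16.2, 18.9 and 18.8 CPM in 20-month and 10.6, 9.43 and 11.4 CPM in 6-month cultures, with no overlap (log2 fold change 0.78 ± 0.13, adjusted p = 2.3e-05). H2-Aa (chr17:34282744-34287827), an α chain, had 1.09, 1.33 and 2.02 CPM in 20-month and 0.620, 0.572 and 0.507 CPM in 6-month cultures (log2 fold change 1.41 ± 0.33, adjusted p = 0.002). Its partner H2-Ab1 had 2.40, 2.67 and 3.29 CPM in 20-month and 1.92, 1.83 and 1.42 CPM in 6-month cultures (log2 fold change 0.71 ± 0.22, adjusted p = 0.023). Its call was lost without 20-month library 3 (log2 fold change 0.58, adjusted p = 0.13) or 6-month library 4 (log2 fold change 0.59, adjusted p = 0.11). Cathepsin S, from Ctss, which degrades the invariant chain, was far more abundant, at 847, 830.4 and 844 CPM in 20-month and 599, 609 and 578 CPM in 6-month cultures (log2 fold change 0.50 ± 0.06, adjusted p = 5.5e-08). H2-Eb1 had a log2 fold change of 0.11 ± 0.25 (adjusted p = 0.82). The B cell gene Cd79a had at most 6 counts in any of the 6 libraries and Ms4a1 had 0.

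The interferon response was higher in 20-month cultures across most of its genes. Of 47 interferon-stimulated genes tested, 27 (57.4%) were higher and 1 lower, against 7.50% and 11.3% of all tested genes. Their median log2 fold change was 0.38, and 44 were above 0. Their summed level was 2356, 2435 and 2617 CPM in 20-month and 1904, 1679 and 1670 CPM in 6-month cultures, with 6-month library 1 the highest of its age and no overlap. When 1 of the 6 libraries was left out, 24 to 34 of the genes were higher. Among the genes that rose, several carry in their promoter the core of the interferon-stimulated response element (ISRE), to which the factors ISGF3 and the IRF family bind. The letters GAAANNGAAA were searched on both strands of the RefSeq promoters of GRCm38.p6, with overlapping matches counted. A promoter spanned 250 bases before to 50 bases after a RefSeq start. A gene with several promoters was scored, and is shown, by the one with the most matches. The letters stood in 23 of the 34 tested members with a promoter in the table (67.6%). Scored in the same way, 427 of 10871 tested genes (3.93%) held them, as did 3.44% of 32851 single promoters of all genes. The share was 11 of 18 (61.1%) among members that rose and 11 of 15 (73.3%) among those not called. Below are promoters of 2 genes that rose, Slfn5 and Oas3, and of Isg15, which has 3 overlapping matches and did not pass the test, each 5′ to 3′ on the strand of the gene, with the matches in capitals.
Slfn5 (chr11:82951852-82952151, plus strand): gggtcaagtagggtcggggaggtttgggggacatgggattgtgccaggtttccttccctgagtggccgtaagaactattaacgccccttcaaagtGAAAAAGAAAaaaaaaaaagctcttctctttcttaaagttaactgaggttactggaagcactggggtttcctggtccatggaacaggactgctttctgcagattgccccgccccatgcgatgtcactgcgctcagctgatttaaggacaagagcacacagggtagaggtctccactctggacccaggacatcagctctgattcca
Oas3 (chr5:120777610-120777909, minus strand): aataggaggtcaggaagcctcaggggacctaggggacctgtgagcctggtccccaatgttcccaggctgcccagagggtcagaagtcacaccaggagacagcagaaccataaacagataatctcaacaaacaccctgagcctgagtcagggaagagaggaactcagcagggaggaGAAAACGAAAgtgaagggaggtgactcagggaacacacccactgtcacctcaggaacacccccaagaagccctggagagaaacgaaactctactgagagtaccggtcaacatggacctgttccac
Isg15 (chr4:156200769-156201068, minus strand): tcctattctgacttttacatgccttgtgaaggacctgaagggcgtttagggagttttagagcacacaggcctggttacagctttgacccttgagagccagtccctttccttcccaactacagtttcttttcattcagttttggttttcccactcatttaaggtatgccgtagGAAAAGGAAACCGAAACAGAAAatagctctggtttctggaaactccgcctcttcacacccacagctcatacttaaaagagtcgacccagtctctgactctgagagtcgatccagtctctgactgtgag
The match began at position -155 from the RefSeq start in Slfn5, at -75 in Oas3 and at -78, -72 and -66 in Isg15. The Slfn5 promoter shown lies inside the gene span given below.

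Slfn5 (chr11:82951349-82964840), a schlafen family gene, had 123, 120.0 and 136 CPM in 20-month and 78.5, 67.2 and 65.2 CPM in 6-month cultures (log2 fold change 0.85 ± 0.10, adjusted p = 5.5e-08). Trim30a (chr7:104409025-104465193), which restrains Toll-like receptor signalling in mouse macrophages, had 108, 107 and 118 CPM in 20-month and 66.8, 68.4 and 65.2 CPM in 6-month cultures (log2 fold change 0.74 ± 0.08, adjusted p = 1.6e-08). Irf7 (chr7:141262706-141266481), the transcription factor that amplifies type I interferon production, had 48.2, 58.9 and 63.8 CPM in 20-month and 34.7, 32.8 and 30.9 CPM in 6-month cultures (log2 fold change 0.80 ± 0.14, adjusted p = 9.8e-05). All 20-month values of these 3 genes lay above all 6-month values, as held for 16.4% of all tested genes. Oas3, an antiviral sensor of double-stranded RNA, had 77.1, 80.6 and 90.2 CPM in 20-month and 47.8, 54.7 and 47.1 CPM in 6-month cultures (log2 fold change 0.73 ± 0.12, adjusted p = 1.9e-05). Oasl2, an OAS-like gene, had 88.8, 90.8 and 107 CPM in 20-month and 53.2, 55 and 49.6 CPM in 6-month cultures (log2 fold change 0.86 ± 0.13, adjusted p = 5.7e-06). Ly6e (0.79 ± 0.09), a membrane protein induced by interferon, and Ifi204 (0.77 ± 0.09), of the family of cytosolic DNA sensors, also rose. The ubiquitin-like Isg15, with 13.9, 15 and 17.9 CPM in 20-month and 15.6, 13.4 and 10.5 CPM in 6-month cultures (log2 fold change 0.26 ± 0.19, adjusted p = 0.36), did not pass the test. The same held for Ifit1 (log2 fold change 0.22 ± 0.19, adjusted p = 0.47) and Mx1 (log2 fold change 0.44 ± 0.28, adjusted p = 0.28), both antiviral effectors. In each of these 3 genes 6-month library 1 was the highest of its age and overlapped the 20-month range. The guanylate-binding protein gene Gbp2 fell (log2 fold change -0.34 ± 0.11, adjusted p = 0.027). Its call was lost without 20-month library 1 (log2 fold change -0.27, adjusted p = 0.15), 20-month library 2 (log2 fold change -0.32, adjusted p = 0.076), 6-month library 1 (log2 fold change -0.24, adjusted p = 0.16) or 6-month library 2 (log2 fold change -0.36, adjusted p = 0.05).

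Secreted inflammatory and growth factors moved in the opposite direction. Of 36 cytokines and genes of the senescence-associated secretory phenotype (SASP), 1 was higher and 20 (55.6%) lower, against 7.50% and 11.3% of all tested genes, with a median log2 fold change of -0.68. Their summed level was 6572, 6680 and 6655 CPM in 20-month and 7957, 8046 and 8095 CPM in 6-month cultures. The gene of M-CSF itself, Csf1 (chr3:107741048-107760469), had 207, 214 and 216 CPM in 20-month and 460.4, 550.2 and 505 CPM in 6-month cultures, 2.38-fold lower (log2 fold change -1.25 ± 0.07, adjusted p = 4.6e-15). Timp1, an inhibitor of matrix metalloproteases, had 66.9, 74.04 and 72.3 CPM in 20-month and 185, 181 and 164 CPM in 6-month cultures (log2 fold change -1.31 ± 0.09, adjusted p = 8.8e-13). Both were lower in every 20-month library than in any 6-month library. The monocyte chemokine gene Ccl2 had 105, 93.2 and 97.5 CPM in 20-month and 179.5, 147 and 185 CPM in 6-month cultures (log2 fold change -0.79 ± 0.12, adjusted p = 6.4e-06). Igfbp7 (-1.11 ± 0.09), which binds insulin-like growth factors, and Mmp2 (-0.94 ± 0.07), a gelatinase, fell as well. The inflammatory cytokine gene Il1b was scarce, with 0.821, 0.111 and 0.303 CPM in 20-month and 5.47, 1.09 and 1.27 CPM in 6-month cultures (log2 fold change -2.73 ± 0.57, adjusted p = 0.00074). Its log2 fold change was -1.60 without 6-month library 1 and -3.55 without 20-month library 1. Tnf (-0.19 ± 0.10, adjusted p = 0.19) and Il6 (-1.18 ± 0.48, adjusted p = 0.087), the other classic inflammatory cytokines, did not pass. The exception that rose was Mmp12, the macrophage elastase, with 576, 505 and 532 CPM in 20-month and 391, 365 and 412 CPM in 6-month cultures (log2 fold change 0.47 ± 0.07, adjusted p = 1.6e-05). Several SASP genes are known to be made also by stromal cells. The 27 stromal markers listed summed to 6473 to 6698 CPM in 20-month and 9291 to 9959 CPM in 6-month cultures, and the part of such cells in the SASP result, and in that of the contractile genes below, was not tested.

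**Figure D3:**
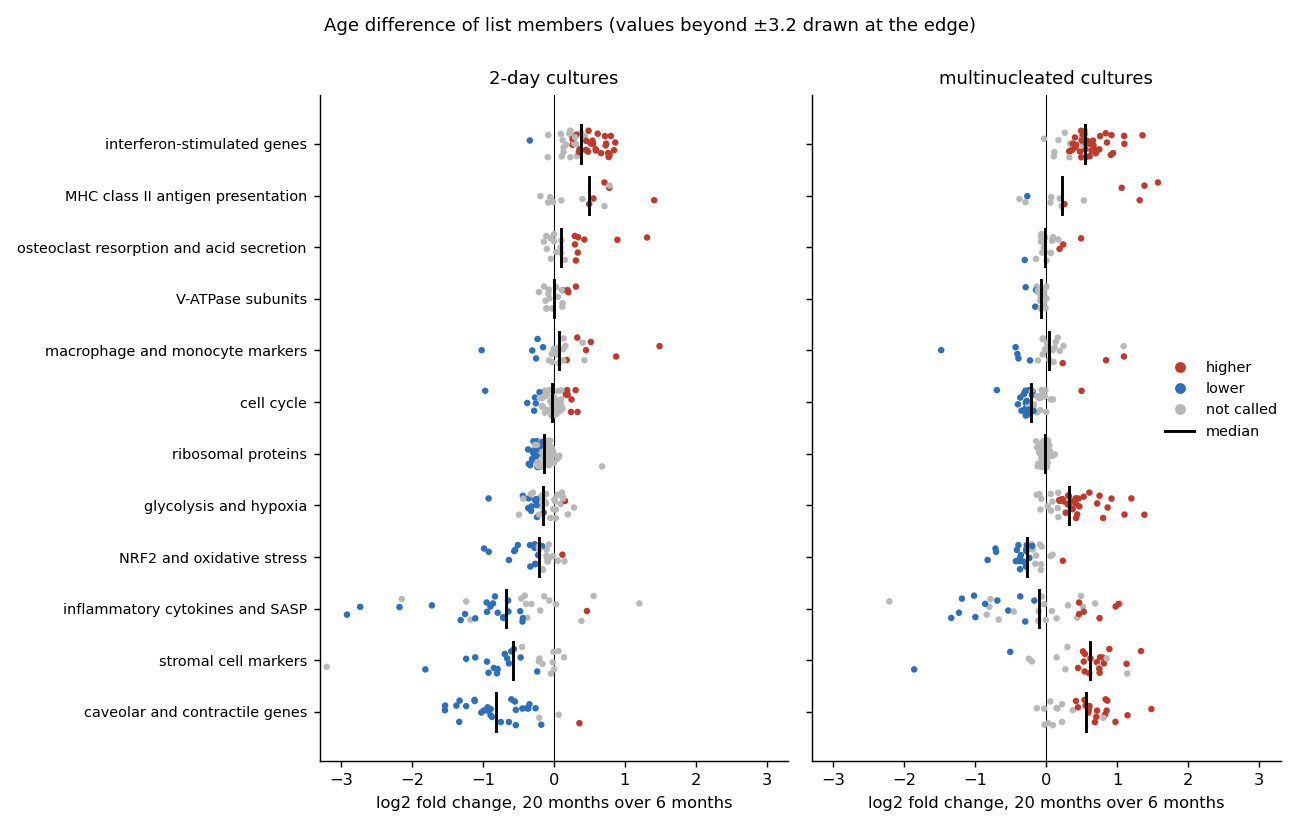
Log2 fold change, 20-month over 6-month, of the tested members of 12 gene lists in 2-day (left) and multinucleated (right) cultures, each point a gene, the bar the list's median and values beyond 3.2 drawn at the edge. The contractile genes lie mostly below 0 at 2 days (median -0.81) and above 0 in multinucleated cultures (0.56), while the interferon-stimulated genes lie above 0 in both (0.38 and 0.55).

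Most contractile genes were lower in 20-month cultures. Such genes are controlled in muscle and fibroblasts by serum response factor and its cofactors. Of 30 caveolar and contractile genes, 1 was higher and 27 (90%) lower, against 7.50% and 11.3% of all tested genes, with a median log2 fold change of -0.81. Their summed level was 8599, 8752 and 8692 CPM in 20-month and 12900, 14500 and 14370 CPM in 6-month cultures. Acta2 (chr19:34241090-34255336), smooth muscle α-actin, had 778, 839 and 817 CPM in 20-month and 1745, 2035 and 1951 CPM in 6-month cultures (log2 fold change -1.24 ± 0.09, adjusted p = 9.3e-13). Myl9 (chr2:156775420-156781658), the regulatory light chain of non-muscle and smooth muscle myosin, had 74.6, 79.9 and 81.2 CPM in 20-month and 184, 218 and 209 CPM in 6-month cultures (log2 fold change -1.37 ± 0.09, adjusted p = 4.5e-13). Actg2, the γ-actin of gut smooth muscle, had 107, 112 and 113 CPM in 20-month and 296, 334 and 332 CPM in 6-month cultures (log2 fold change -1.53 ± 0.10, adjusted p = 7.2e-14). In all 3 the highest 20-month library was below the lowest 6-month library. Cald1 (-0.93 ± 0.06) and Mylk (-1.11 ± 0.08), the caldesmon and myosin light chain kinase genes, fell too. There were 3 exceptions. Cav1, the caveolin of most cell types, had 158, 165 and 163 CPM in 20-month and 150.5, 158 and 154 CPM in 6-month cultures (log2 fold change 0.07 ± 0.06, adjusted p = 0.42). Tagln, a marker of smooth muscle, was present at only 2.17 ± 1.11 CPM in 20-month and 2.43 ± 0.372 CPM in 6-month cultures (SD, n = 3 each) and did not pass. Cav2, the partner of Cav1 in caveolae, rose (log2 fold change 0.36 ± 0.06, adjusted p = 1.1e-05). The serum response factor's motif, the CArG box, was searched on both strands of the same promoters. It stood in 3 of 25 list members (12%), Cnn2, Myl9 and Vcl. Scored in the same way, 172 of 10871 tested genes (1.58%) held it, as did 1.63% of all single promoters. The promoter of Myl9, the most strongly lowered of the 3, has its match at position -161, in capitals.
Myl9 (chr2:156775214-156775513, plus strand): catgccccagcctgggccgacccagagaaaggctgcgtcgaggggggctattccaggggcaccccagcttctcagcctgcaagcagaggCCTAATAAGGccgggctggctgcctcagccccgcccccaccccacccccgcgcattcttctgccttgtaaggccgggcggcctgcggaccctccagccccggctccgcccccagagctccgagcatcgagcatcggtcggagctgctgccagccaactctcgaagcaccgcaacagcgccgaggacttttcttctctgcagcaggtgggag

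Markers of stromal cells, the fibroblast-like cells that can persist in marrow cultures, fell in part. Of 26 stromal markers tested, 0 were higher (edgeR; 0 at an unadjusted p under 0.05 and 0 by DESeq2) and 15 (57.7%) lower, with a median log2 fold change of -0.58. Their summed level was 6473, 6698 and 6556 CPM in 20-month and 9291, 9621 and 9959 CPM in 6-month cultures, and of the 27 listed 2 were at 0 in every 20-month library and 0 in every 6-month library. The 57.7% of tested markers that were lower stand against 11.3% of all tested genes. The matrix genes Fn1 (-0.80 ± 0.09), Bgn (-0.92 ± 0.08) and Sparc (-0.69 ± 0.07), encoding fibronectin, biglycan and osteonectin, fell. So did Cxcl12 (log2 fold change -1.24 ± 0.18, adjusted p = 3.6e-06), the chemokine that holds blood progenitors in marrow. Decorin, from Dcn (chr10:97479609-97518143), a fibroblast proteoglycan, had 4.31, 2.94 and 3.54 CPM in 20-month and 12.1, 12.5 and 12.9 CPM in 6-month cultures (log2 fold change -1.81 ± 0.15, adjusted p = 4.5e-11). Of the 11 tested stromal markers that did not pass, Col1a1, Col1a2, Col6a1 and Col6a2 encode collagen chains. Kitl, Lepr, Pdgfra and Runx2 were also among them. Col1a1 (chr11:94936224-94953042), the main chain of type I collagen, had 935, 1011 and 988 CPM in 20-month and 948, 881 and 975 CPM in 6-month cultures, so the ages overlapped (log2 fold change 0.07 ± 0.09, adjusted p = 0.65).

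**Figure D4:**
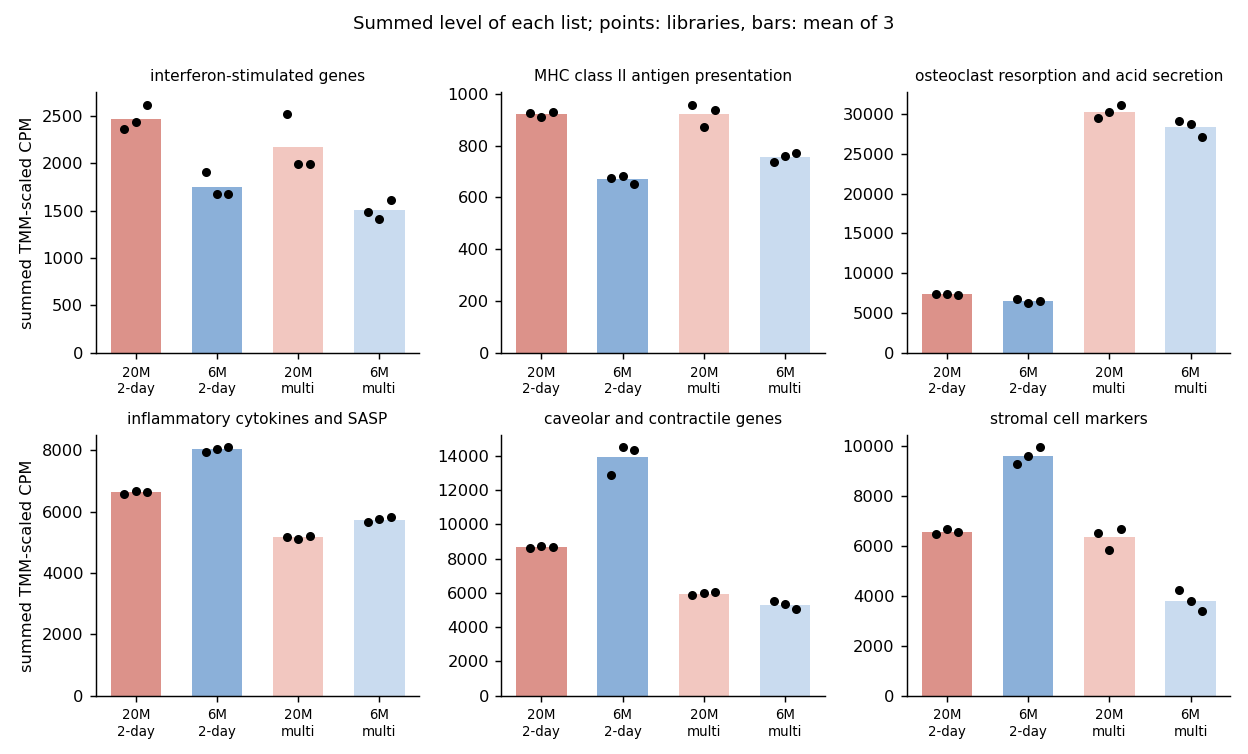
Summed level (TMM-scaled CPM, axes from 0) of 6 gene lists in each library of the 20-month 2-day, 6-month 2-day, 20-month multinucleated and 6-month multinucleated groups, left to right. The sums of the contractile and stromal lists are lower in all 3 20-month 2-day libraries than in any 6-month 2-day library, and those of the interferon-stimulated genes higher.

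Antioxidant genes were lower with age. Of 29 genes of the oxidative stress response governed by the transcription factor NRF2, 1 was higher and 14 (48.3%) lower. Among all tested genes 7.50% were higher and 11.3% lower. The list's median log2 fold change was -0.21. Hmox1 (chr8:75093621-75100589), haem oxygenase, had 354, 335 and 354 CPM in 20-month and 662, 666 and 642 CPM in 6-month cultures (log2 fold change -0.92 ± 0.07, adjusted p = 1.9e-12). Nqo1 (chr8:107388225-107403206), a quinone reductase, had 14.03, 16.4 and 15.7 CPM in 20-month and 28.8, 33.9 and 29.02 CPM in 6-month cultures (log2 fold change -0.98 ± 0.11, adjusted p = 1.5e-08). Fth1, the heavy chain of the iron store ferritin, had 2629, 2763 and 2710 CPM in 20-month and 3870, 4068 and 3890 CPM in 6-month cultures (log2 fold change -0.55 ± 0.07, adjusted p = 7.8e-07). These 3 genes were lower in every 20-month library, and the malic enzyme gene Me1 (-0.51 ± 0.06) and the catalase gene Cat (-0.34 ± 0.04) fell by less. Gclm, of glutathione synthesis, had a log2 fold change of -0.09 ± 0.05 (adjusted p = 0.25). Nfe2l2, which encodes NRF2, was the 1 gene that rose (log2 fold change 0.12 ± 0.04, adjusted p = 0.044). That call was lost without 20-month library 1 (log2 fold change 0.11, adjusted p = 0.14), 20-month library 2 (log2 fold change 0.13, adjusted p = 0.065), 6-month library 2 (log2 fold change 0.12, adjusted p = 0.1) or 6-month library 4 (log2 fold change 0.12, adjusted p = 0.098). Of 15 genes of iron handling, 2 were higher and 5 lower, a count of lower members that was 3 without 20-month library 2 or 20-month library 3. Besides Hmox1 and Fth1, the phagosomal metal transporter gene Slc11a1 fell (log2 fold change -0.34 ± 0.05, adjusted p = 3.8e-06).

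Genes of senescence and growth arrest did not move one way. Cdkn2a (chr4:89274471-89294653), the locus of p16 and p19ARF, whose level in many tissues is known as a marker of age, fell. It had 3.97, 5.39 and 5.01 CPM in 20-month and 13.9, 14.7 and 12.1 CPM in 6-month cultures (log2 fold change -1.49 ± 0.15, adjusted p = 3e-09). No 20-month library reached 6 CPM and no 6-month library was below 12 CPM. Its neighbour Cdkn2b, encoding p15, had 4.93, 4.39 and 3.49 CPM in 20-month and 6.66, 6.75 and 6.44 CPM in 6-month cultures (log2 fold change -0.65 ± 0.16, adjusted p = 0.0044). Its call was lost without 20-month library 3 (log2 fold change -0.50, adjusted p = 0.059). Cdkn1b, encoding p27, rose (log2 fold change 0.47 ± 0.09, adjusted p = 0.00015). Over the 21 genes of cyclin-dependent kinase inhibitors and senescence, 5 were higher and 6 lower, the count of higher members being 2 without 6-month library 2. Of 39 targets of p53, 3 were higher and 11 (28.2%) lower, against 7.50% and 11.3% of all tested genes, a count of lower members that was 7 without 20-month library 2 or 6-month library 2. Ephx1, a microsomal epoxide hydrolase, fell (log2 fold change -0.43 ± 0.07, adjusted p = 9.4e-06). Phlda3, an inhibitor of Akt signalling, fell by more (log2 fold change -0.73 ± 0.12, adjusted p = 2.1e-05). So did Eda2r, a receptor of the TNF family (-0.77), and Btg2, an antiproliferative gene (-0.93). The stress sensor gene Sesn1 rose (log2 fold change 0.40 ± 0.07, adjusted p = 0.00018), and Mdm2, the regulator of p53, did not pass (-0.05, adjusted p = 0.52). Of 26 genes of telomerase and telomere maintenance, 0 were higher (edgeR; 1 at an unadjusted p under 0.05 and 0 by DESeq2) and 4 lower; the count of lower members was 1 without 20-month library 1 and 2 without 20-month library 3, 6-month library 1 or 6-month library 2. Ruvbl2, a helicase subunit that takes part in telomerase assembly, fell (log2 fold change -0.36 ± 0.07, adjusted p = 7e-04). Tert, the catalytic subunit, stood at only 0.446 ± 0.129 CPM in 20-month and 0.578 ± 0.130 CPM in 6-month cultures (SD, n = 3 each; adjusted p = 0.61).

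Genes of glycolysis and translation were lower by small amounts, and those of the cell cycle moved in both directions. Of 49 cell cycle genes, 7 (14.3%) were higher and 6 (12.2%) lower, against 7.50% and 11.3% of all tested genes. Their median log2 fold change was -0.03. The count of higher members was 4 without 20-month library 3 and 3 without 6-month library 2. That of lower members was 3 without 6-month library 2. The D-type cyclin gene Ccnd2 changed most, with 84.7, 81.9 and 85.2 CPM in 20-month and 152, 168 and 172 CPM in 6-month cultures (log2 fold change -0.97 ± 0.08, adjusted p = 4.2e-11). Mki67, the standard marker of dividing cells, overlapped between the ages, with 931, 899 and 929.6 CPM in 20-month and 812, 878 and 914 CPM in 6-month cultures (log2 fold change 0.08 ± 0.09, adjusted p = 0.56). The licensing gene Mcm5 fell (log2 fold change -0.27 ± 0.06, adjusted p = 0.00071) and the mitotic kinesin gene Kif11 rose (log2 fold change 0.24 ± 0.06, adjusted p = 0.0018). Of 39 genes of glycolysis and hypoxia, 1 was higher and 12 (30.8%) lower, against 7.50% and 11.3% of all tested genes, with a median log2 fold change of -0.16. They summed to 13480 to 14030 CPM in 20-month and 15700 to 17040 CPM in 6-month cultures, without overlap. The 12 lower members were a count of lower members that was 7 without 20-month library 1 or 6-month library 2. Pkm, the gene of pyruvate kinase, had 2754, 2938 and 2921 CPM in 20-month and 3306, 3768 and 3687 CPM in 6-month cultures (log2 fold change -0.32 ± 0.06, adjusted p = 0.00017). Gapdh (-0.36 ± 0.07), Ldha (-0.27 ± 0.06) and the angiogenic factor gene Vegfa (-0.44 ± 0.10) fell by similar amounts. The glucose transporter gene Slc2a1 did not pass (-0.18, adjusted p = 0.076). Of 79 ribosomal protein genes, 0 were higher (edgeR; 1 at an unadjusted p under 0.05 and 0 by DESeq2) and 20 (25.3%) lower, with a median log2 fold change of -0.14. After TMM scaling they summed to 35310 to 39300 CPM in 20-month and 39970 to 41830 CPM in 6-month cultures, without overlap. As shares of all counts, without that scaling, the ages did overlap, at 3.91% to 4.32% and 4.27% to 4.51%. The count of lower members was 3 without 20-month library 1 or 6-month library 2, 5 without 20-month library 3, 9 without 6-month library 1 and 8 without 6-month library 4. Of 46 nuclear genes of oxidative phosphorylation, 0 were higher (edgeR; 1 at an unadjusted p under 0.05 and 0 by DESeq2) and 3 lower. That count was 0 without 20-month library 1, 6 without 20-month library 2 and 10 with the 12 wild-type libraries. Of 13 transcripts of the mitochondrial genome, 0 were higher (edgeR; 1 at an unadjusted p under 0.05 and 0 by DESeq2) and 0 lower (edgeR; 1 at an unadjusted p under 0.05 and 0 by DESeq2).

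Transcripts of IgG and κ chains were present in 20-month cultures and scarce in 6-month cultures. Ighg2b (chr12:113302965-113307933, minus strand), a constant region gene of IgG, had 110, 176 and 126 counts in the 20-month libraries and 0 in each 6-month library. That is at least 148-fold higher when 3 counts over the 6-month group are taken as the limit that 0 allows. The 4 IgG constant genes together had 228, 296 and 284 counts in 20-month and 12, 0 and 8 counts in 6-month libraries. Igkc (chr6:70726435-70726966), the κ light chain constant region, had 131, 142 and 175 counts in 20-month and 20, 3 and 2 counts in 6-month libraries (log2 fold change 4.21 ± 0.44, adjusted p = 1.6e-07; log2 fold change 5.93 without 6-month library 1). Library 1 was the highest of the 6-month group for Igkc. The variable regions were many: 51 of 160 κ variable genes had at least 1 count in 20-month libraries, 419 counts in all, and 6 had one in 6-month libraries, 18 counts in all. IgM overlapped between the ages, with 94, 129 and 107 counts of Ighm in 20-month and 168, 97 and 106 counts in 6-month libraries. Markers of whole B lineage cells had few counts at both ages. Cd79a had 0, 6 and 2 counts in 20-month and 2, 1 and 3 in 6-month libraries. The plasma cell gene Mzb1 had at most 1 count in any of these 6 libraries. Jchain, which joins IgM and IgA subunits, had 15, 11 and 16 counts in 20-month and 1, 0 and 8 counts in 6-month libraries (log2 fold change 2.26 ± 0.61, adjusted p = 0.0084). Its call was lost without 6-month library 2 (log2 fold change 1.74, adjusted p = 0.068), and its log2 fold change was 4.52 without 6-month library 4. The 19 B and plasma cell markers summed to 524 to 533 CPM in 20-month and 528 to 559 CPM in 6-month cultures, in which the genes Sdc1, Xbp1 and Blnk, not restricted to B cells, had the highest levels. The 20-month multinucleated cultures likewise had 226 IgG constant counts against 1 in the 6-month ones. In these IgG genes, near-identical copies share reads, so the split between them is uncertain.

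Markers of T and NK cells and of neutrophils were low, and the list of blood progenitor markers had a larger sum. The 20 T and NK cell markers summed to 54.4 to 61.5 CPM in 20-month and 54.1 to 59.97 CPM in 6-month cultures, with 9 at 0 in each age, and 0 of 5 tested were higher (edgeR; 0 at an unadjusted p under 0.05 and 0 by DESeq2) and 1 lower. The 18 neutrophil markers summed to 18.7 to 25.4 CPM in 20-month and 20.3 to 32.5 CPM in 6-month cultures. Of the 5 tested, Csf3r, the receptor of granulocyte colony-stimulating factor, rose (log2 fold change 0.86 ± 0.20, adjusted p = 0.0026). Mmp8, a collagenase, fell (log2 fold change -0.56 ± 0.12, adjusted p = 0.001). Lcn2, a lipocalin that binds iron carriers, fell too (log2 fold change -1.31 ± 0.31, adjusted p = 0.0023), a call lost without 6-month library 1 (log2 fold change -0.89, adjusted p = 0.052). The 15 markers of blood progenitors summed to 1344 to 1411 CPM in 20-month and 1340 to 1365 CPM in 6-month cultures. Multinucleated cultures had larger sums, 2128 to 2243 CPM at 20 months and 2030 to 2094 CPM at 6 months. The 2 members named below reached at most 17.5 CPM, so other members made up most of the 2-day sum. It is therefore no measure of progenitor cells. Among the 11 tested, 2 were higher and 1 lower, against 7.50% and 11.3% of all tested genes. Ly6a, the stem cell antigen that interferon also induces, had 13.7, 17.5 and 15.7 CPM in 20-month and 9.64, 9.09 and 8.98 CPM in 6-month cultures (log2 fold change 0.77 ± 0.13, adjusted p = 5.8e-05). Cd34, a sialomucin of progenitors and endothelium, had 1.16, 1.55 and 1.42 CPM in 20-month and 0.508, 0.515 and 0.406 CPM in 6-month cultures (log2 fold change 1.54 ± 0.35, adjusted p = 0.0016).

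The age differences at the 2 stages overlapped in part. In multinucleated cultures 1132 genes (7.39%) were higher and 1056 (6.90%) lower in 20-month than in 6-month cultures. Of the 1149 genes higher at 2 days, 235 were also higher and 51 lower in multinucleated cultures; of the 1733 lower at 2 days, 257 were also lower and 315 higher. Across the 10315 genes with a mean of at least 5 CPM at either age at 2 days, the 2 log2 fold changes, which share no library, had a Pearson r of 0.12 and a Spearman rho of 0.13. The difference between the age effects, 2-day minus multinucleated, was above 0 in 744 genes (4.86%) and below 0 in 1149 (7.50%) at an adjusted p under 0.05. The contractile genes turned round: 0 of 30 were lower and 18 higher in multinucleated cultures (median 0.56), and the age effect at 2 days was below the multinucleated one in 26 of 30 and above it in 1. Acta2 had 317, 316 and 330.2 CPM in 20-month and 227, 226 and 179 CPM in 6-month multinucleated cultures, and its age effects differed by -1.84 ± 0.12, adjusted p = 3.1e-13. Of the 26 stromal markers, 16 were higher and 2 lower in multinucleated cultures, with Col1a1 at 1.33 ± 0.09, adjusted p = 5.3e-13, and the effect was lower at 2 days in 18. Glycolysis did the same, with 28 of 39 higher and 0 lower in multinucleated cultures and 24 of 39 lower at 2 days by the test of the difference. Csf1 had 63.8 ± 3.16 CPM in 20-month and 46.3 ± 2.94 CPM in 6-month multinucleated cultures (SD, n = 3 each; difference between the age effects -1.71 ± 0.10, adjusted p = 4.7e-14).

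**Figure D5:**
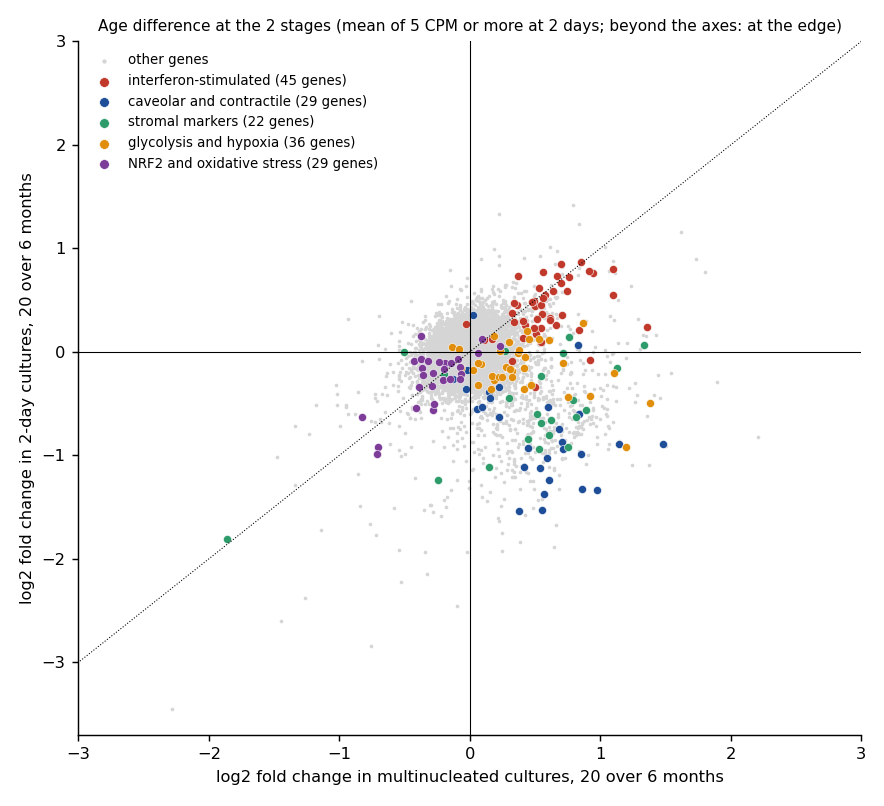
Log2 fold change, 20-month over 6-month, in 2-day cultures (vertical axis) against that in multinucleated cultures (horizontal axis) for genes of at least 5 CPM on average, with 5 gene lists coloured and points beyond the axes drawn at the edge. Most interferon-stimulated genes lie in the upper right and most contractile genes in the lower right. Over the 10315 genes with a mean of at least 5 CPM at either age at 2 days, the 2 effects had little relation (r = 0.12).

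Interferon-stimulated genes were mostly higher, and many antioxidant genes lower, at both stages. In multinucleated cultures 36 of 47 interferon-stimulated genes were higher and 0 lower (median 0.55), 26 of the 27 that rose at 2 days among them, and for 5 of the 47 the age effects differed. Of the NRF2 list 1 was higher and 17 of 29 lower in multinucleated cultures, and 10 of the 14 that fell at 2 days were among them. The age effect was higher at 2 days in 4 of the 29 by the test of the difference. Several 2-day gains were larger than those of multinucleated cultures. For Car2 the multinucleated log2 fold change was 0.09 ± 0.07, adjusted p = 0.48, and its age effects differed by 0.81 (adjusted p = 3.5e-06). For Calcr it was -0.01 ± 0.08, adjusted p = 0.93, a difference of 1.33 (adjusted p = 1.1e-05). For Itgax it was 0.23 ± 0.10, adjusted p = 0.16, a difference of 1.11 (adjusted p = 3.8e-06). Other genes named for a 2-day log2 fold change above the multinucleated one were Mybpc3, a myosin-binding protein gene (difference 1.55), Sgsm1 (1.39), Rgs1, a regulator of G protein signalling (1.05), and Tspoap1 (0.94). Rgs1 had opposite signs at the 2 stages, with log2 fold change 0.35 ± 0.12, adjusted p = 0.04 at 2 days and -0.70 ± 0.13, adjusted p = 0.00027 in multinucleated cultures. Its 2-day call was lost without 20-month library 1 (log2 fold change 0.27, adjusted p = 0.18), 20-month library 2 (log2 fold change 0.38, adjusted p = 0.057), 6-month library 1 (log2 fold change 0.34, adjusted p = 0.088) or 6-month library 4 (log2 fold change 0.32, adjusted p = 0.12). Mybpc3 had 3.42, 4.55 and 4.71 CPM in 20-month and 2.37, 2.001 and 1.98 CPM in 6-month 2-day cultures and 4.64 ± 1.13 against 6.76 ± 0.767 CPM in multinucleated ones (SD, n = 3 each). In the other direction stood Krt19, a keratin (-3.03), Fndc1 (-2.53), Edn1, the vasoconstrictor endothelin (-2.47), Siglecg, an inhibitory lectin (-2.41), Ankrd1, a mechanically induced nuclear protein (-2.37), and Mgll (-2.36). Krt19 had 4.17, 4.999 and 5.72 CPM in 20-month and 8.29, 8.92 and 9.34 CPM in 6-month 2-day cultures, whereas in multinucleated cultures it had 2.30, 3.16 and 2.92 CPM at 20 months and 0.758, 0.681 and 0.387 CPM at 6 months. Cell cycle genes differed in the reverse sense: 26 of 49 were lower with age in multinucleated cultures and 1 higher, and for 14 the age effect was higher at 2 days. The transcripts of the resorption genes, summed, were 30270 ± 868 CPM in 20-month and 28320 ± 1029 CPM in 6-month multinucleated cultures (SD, n = 3 each).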

How the data were processed

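The deposited files hold raw counts per gene, not normalized, which the authors made with featureCounts 1.6.0 from STAR alignments on Ensembl 88 annotation of GRCm38, reading exons by gene ID and counting read pairs, per the file headers. The headers give no strand or multimapping option, and the submitters' processing notes name HTSeq and mm10. The version of STAR is not given in the sources used here. Poly(A) RNA was sequenced on an Illumina NovaSeq instrument, per the labels' protocols. Symbols were taken from a GENCODE table and matched 50376 of 50686 genes. Groups came from titles.

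The comparison was fitted with edgeR 4.0.16 (R 4.3.3) on all 30 libraries, 1 coefficient for each of 10 groups, after filterByExpr (35376 genes removed, 15310 kept) and TMM scaling, with the quasi-likelihood test and Benjamini-Hochberg adjustment over all tested genes. The biological coefficient of variation was 0.061. The age effects of both stages and their difference were contrasts of this fit. CPM values carry no length correction; TPM, used only for the ranks of marker genes, was computed from the counts and the exon lengths in the files. On simulated counts for 15139 genes of the 2-day comparison, the test recovered 95 of 100 genes changed 1.5-fold and 100 of 100 changed 2-fold. Of its calls 6.25% were false. The changed genes were drawn from those of at least 5 CPM at 2 days, and the counts were drawn with the fit's own spread. These rates therefore do not cover scarcer genes or differences between the cultures beyond that spread. DESeq2 1.42.0, other scalings, filters, sample sets, a replicate block and leaving out each library were alternatives. Same-numbered libraries of the 2 ages did not deviate together (r = 0.013 for number 1 and 0.04 for number 2). With 3 libraries an age this cannot exclude that the numbers pair them. Genes were named by rule: the 12 largest changes in each direction above 5 CPM without overlap between the ages, the 6 largest differences between the age effects in each direction, and in each list its key genes and up to 5 called members by p; genes named to account for a motif, a cell type, a count or an exception were chosen after their values were seen. The members and the 41 lists were chosen with earlier results of these data known. Some genes that this rule names are not reported here.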

Additional observations from a re-analysis of the deposited data

Results flagged for a closer look

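The age effect differed between 2-day and multinucleated cultures, by edgeR's test of the difference itself, in 744 genes in which it was higher at 2 days and 1149 in which it was lower. The values below are the 2-day minus the multinucleated log2 fold change of 20-month over 6-month cultures, each past an adjusted p of 0.05. Among genes that rose at 2 days it was 0.63 for the kinase gene Fgr, 1.11 for Itgax, 0.40 for Cpne8 and 0.81 for Parvg. Among the genes with the largest positive differences, it was 1.55 for Mybpc3, 1.39 for Sgsm1, 1.33 for the calcitonin receptor gene Calcr, 1.05 for Rgs1 and 0.94 for Tspoap1. Among genes that fell at 2 days it was -2.08 for Kif1a, -2.36 for Mgll, -1.12 for Sod3, -2.00 for Susd5, -1.70 for Slit3, -1.82 for Galnt18, -1.45 for Shroom3, -1.85 for Pcsk6 and -1.30 for Cobl. The largest negative differences were -3.03 for the keratin gene Krt19, -2.53 for Fndc1, -2.47 for Edn1, -2.41 for Siglecg and -2.37 for Ankrd1. When each of the 12 wild-type libraries of both stages was left out in turn, the call was lost in 9 cases for Shroom3 (adjusted p up to 0.22), 6 for Sod3 (0.14), 2 each for Cobl (0.093) and Cpne8 (0.083) and 1 for Pcsk6 (0.062).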

How the results depend on the processing

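None of the 223 genes called at 2 days among the 301 named or key list genes changed sign under an alternative; the other calls were counted only. The median 2-day log2 fold change of 7 of 41 lists changed sign under at least 1 alternative: RANK signalling (-0.02, up to 0.03), T and NK cell (0.05, down to -0.32), cell cycle (-0.03, 0.02 with library totals), complement C1q (0.01, down to -0.17), dendritic cell (0.14, -0.16 under a stricter filter), progenitor (-0.07, up to 0.05) and unfolded protein response (0.02, down to -0.01). Of 41 counts of 1 to 3 list members, 34 changed when 1 library was left out. The 1149 genes higher at 20 months became 1770 when only the 6 libraries were fitted and 2003 with the 12 wild-type libraries. With the replicate number as a block, 582 were higher and 1045 lower. At 2 days only numbers 1 and 2 occur at both ages, so with the block the 2-day age contrast rested on those libraries. The effects of the block and of comparing fewer libraries were not told apart. Genes at least 2-fold higher were 48 under a stricter filter. In multinucleated cultures 1586 genes were lower with the 12 libraries. The difference between the age effects was higher at 2 days in 1476 genes with the 12 libraries and in 407 with the replicate block. With library totals in place of TMM, 1585 genes were higher and 1368 lower, against 1149 and 1733. DESeq2 called 1223 higher and 1560 lower; it shared 2613 of the 2882 calls. The replicate block shared 1572, with 17 interferon-stimulated genes higher against 27. It was kept as an alternative because the labels do not say whether the numbers pair the libraries. Of 79 ribosomal protein genes, 35 were lower with the 6 libraries, 41 with the 12, 33 without a filter, 9 with library totals and 5 with the replicate block, against 20. Leaving out 1 library gave 720 to 1150 genes higher, 1019 to 1480 lower, 58 to 97 at least 2-fold higher and 265 to 290 at least 2-fold lower; for multinucleated cultures 779 to 1040 higher and 560 to 907 lower; and for the difference 419 to 826 higher and 877 to 1155 lower. The lowest 2-day counts were without 6-month library 2 (720 higher, 1019 lower). Of the 223 genes, 150 kept their calls without any 1 library and 73 lost theirs in at least 1 case. The cause of these changes was not tested.

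With 3 libraries per age, p-values rest on a spread shared with the other groups. Genes of a few counts, such as Il1b, Ppbp and the immunoglobulin genes, have folds that depend on single libraries. Counts were made without a stated strand, so reads of overlapping genes cannot be told apart, and the compared libraries differ in age alone only as far as the labels say.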

Other observations

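Other gene groups at 2 days showed smaller or mixed changes. Of 28 heat shock and immediate early genes, 1 was higher and 8 lower in 20-month cultures. The early growth response gene Egr1 had 38.1, 40.8 and 32.9 CPM in 20-month and 66.6, 50.8 and 52.5 CPM in 6-month cultures (log2 fold change -0.60 ± 0.11, adjusted p = 0.00016), and Egr2 (-0.88 ± 0.14), the orphan receptor gene Nr4a1 (-0.98 ± 0.17) and the small heat shock protein gene Hspb1 (-1.02 ± 0.16) fell with it, while Klf6 rose (0.34 ± 0.05) and Fos (-0.09 ± 0.06, adjusted p = 0.31) did not pass. Of 27 lysosomal genes, 7 were higher and 2 lower, the count of higher members being 4 without 6-month library 4. The acid lipase gene Lipa (0.24 ± 0.04) and Lamp2 (0.20 ± 0.04), a lysosomal membrane protein gene, rose, and Ctsz (-0.32 ± 0.07), a cathepsin, fell. Of 23 genes of lipid handling under the receptor LXR, 6 were higher, a count that was 3 without 6-month library 2, and 5 lower, a count that was 3 without 20-month library 2, 6-month library 2 or 6-month library 4. The degrader of the LDL receptor, Mylip (0.47 ± 0.10), rose and the lipid droplet gene Plin2 (-0.33 ± 0.06) fell.

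Lists of stress and repair had 3 to 6 members called each, against 18.8% of all tested genes in either direction. Of 28 genes of the unfolded protein response 1 was higher and 2 lower, of 37 genes of DNA damage response 3 were higher and 3 lower, of 30 genes of cholesterol synthesis 3 were higher and 2 lower, and of 20 NF-kB feedback genes 3 were higher and 2 lower. With the 12 wild-type libraries the higher members were 5 of the unfolded protein response, 9 of DNA damage response, 7 of cholesterol synthesis and 6 of NF-kB feedback. Those of cholesterol synthesis were 6 without 6-month library 1 and 1 without 6-month library 2 or 4, and those of DNA damage response 1 without 6-month library 2. Of 21 cathepsin and matrix protease genes, 6 were higher and 8 lower, with the protease inhibitor gene Timp2 at -0.31 ± 0.05 and Mmp14 at -0.04 ± 0.06 (adjusted p = 0.65). Of 9 endothelial markers tested, 2 were higher and 1 lower, with Vwf, the von Willebrand factor gene, at 30.8, 26.4 and 27.7 CPM in 20-month and 19.2, 19.8 and 21.6 CPM in 6-month cultures (log2 fold change 0.48 ± 0.09, adjusted p = 0.00012). Of 4 mast cell and basophil markers tested, 0 were higher (edgeR; 0 at an unadjusted p under 0.05 and 0 by DESeq2) and 2 lower, and the 13 listed summed to 4.55 to 5.48 CPM in 20-month and 6.86 to 7.92 CPM in 6-month cultures. The dendritic chemokine gene Ccl17 had 3 counts in 20-month and 104 counts in 6-month libraries.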
